A study of Mus musculus with 22 samples.

Results

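The comparison described here follows mouse fibroblasts from 6 to 12 h after serum was returned to starved cells, the interval in which they enter S phase. The members are the 2 serum libraries taken at 12 h and the 2 taken at 6 h, 4 of the 22 RNA-seq libraries of the series, compared over all 11208 genes of the deposited table on the log2(value + 1) scale. All 4 libraries came from 1 line of NIH/3T3 cells, an established mouse embryonic fibroblast line, into which an empty version of a doxycycline-inducible construct (EV) had been stably integrated. The cells were held for 48 h at 0.25% serum and then given 10% serum. The same line given 500 ng/ml doxycycline in place of serum (EV doxycycline, 2 libraries at 6 h and 2 at 12 h) and a line with an inducible E2F1 construct given the same doxycycline (E2F1 doxycycline, 2 and 2) serve as the comparison over the same hours. Whether the lines are single clones, and whether the serum cultures also received doxycycline, is not given in the sources used here. Nothing says that replicates came from separate cultures. The p-values therefore measure only the spread between replicate libraries, estimated over all 22 libraries together, and this spread may be technical.

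A starved fibroblast rests in a reversible arrest in which pocket proteins of the retinoblastoma family hold E2F transcription factors inactive. Growth factors raise D-type cyclins, whose kinases phosphorylate the pocket proteins, and the freed E2F factors turn on cyclin E and the genes that license, fire and copy replication origins. Genes of mitosis follow later and are controlled by the MuvB complex with B-MYB and FOXM1, which acts through a promoter element called CHR.

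The values are normalized counts. Their totals were 40132639 and 41407438 at 6 h (replicates 1 and 2) and 36963986 and 37385360 at 12 h, within a range of 34014608 to 46057140 over the 22 libraries. The median absolute log2 difference between the 2 replicates was 0.16 at 6 h and 0.12 at 12 h. Of 10 fibroblast markers, 9 were in the table. Their summed normalized counts were 1142850 and 1115397 at 6 h and 857273 and 1041598 at 12 h. At 12 h 4 of the 9 were called lower (44.4%, against 20.6% of all genes) and none higher. None of the listed markers of epithelium, endothelium, skeletal muscle or adipocytes was among the genes of the table, and of 8 leukocyte markers only Csf1r was, at 449 and 626 at 6 h and 365 and 735 at 12 h.

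Between 6 and 12 h of serum, 4472 genes changed (39.9% of the 11208 tested), of which 2164 rose (19.3%) and 2308 fell (20.6%), at an adjusted p under 0.05 (limma, all 22 libraries in the fit, Benjamini-Hochberg over all genes). Among them 601 rose at least 2-fold (5.36%) and 239 fell at least 2-fold (2.13%), so the large changes were mostly rises. Setting every library to the same total moved the median change of all genes from -0.02 to 0.11 and the split to 3184 higher and 1392 lower. Without regard to a test, the 12 h pair did not overlap the 6 h pair and was higher for 3578 genes (31.9%) and lower for 3990 (35.6%). In whole cultures a change in the share of cells in a cell cycle phase and a change in RNA per cell cannot be told apart.

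**Figure D1:**
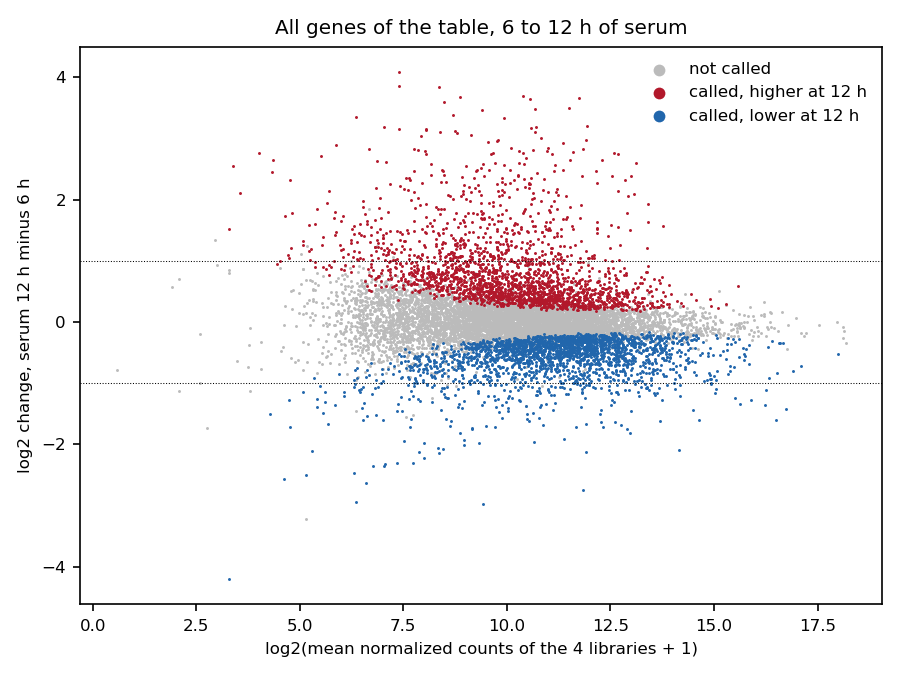
Log2 change from 6 to 12 h of serum (vertical axis) against the log2 mean normalized count of the 4 libraries plus 1 (horizontal axis), 1 point per gene; colour marks genes called at an adjusted p under 0.05 (limma) and dotted lines mark a 2-fold change. The 601 called rises past the upper line outnumber the 239 called falls past the lower one.

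Among the 15 largest rises with a mean of at least 50 was that of the lncRNA Eldr. It read 16 and 20 normalized counts at 6 h and 319 and 317 at 12 h. Its rise was 4.08 on the log2 scale (limma, SE 0.24, adjusted p = 1.21e-09). Before serum Eldr read 181 and 210, so the 6 h level lay below the starved level. The 12 h level was 0.70 above the starved one on the log2 scale. Dscc1, a subunit of an alternative clamp loader, read 45 and 39 at 6 h and 609 and 610 at 12 h (log2 3.83). Slfn9 went from 525 and 474 to 6972 and 5730 (log2 3.66), and Tcf19 from 462 and 489 to 5577 and 5112 (log2 3.49). That the libraries of the groups did not overlap was a condition for entry to this set. Other members of this set were E2f2, Chaf1b, Dna2, Mybl2, Rmi2, Brip1, Fanci, 4930452B06Rik, Rad54l and Lig1. The mean of 4930452B06Rik was 153.5 before serum, 13.5 at 6 h and 148 at 12 h, a return to the starved level. All other members of the set had a higher mean at 12 h than before serum. Exons of Dscc1, Rmi2, Fanci, Rad54l and Lig1 overlap an exon of another gene in GENCODE M21. The same holds for 4020 of the 11208 genes, 1567 of the 4472 called ones among them; whether the counting used strand is not given in the sources used here, so reads of such stretches cannot be assigned to 1 gene. Other genes named in what follows with such an overlap are Ccne2, Cdk2, Ccnd1, Ccnd2, Ccnd3, Cdkn1a, Foxm1, E2f5, E2f7, E2f8, Mcm7, Orc1, Orc4, Cdc45, Pole, Wdhd1, Shmt1, Chaf1a, Slbp, Ccna2, Plk1, Cdc20, Vcl, Tnc, Ddit3, Dnajb9, Hsp90b1, Pdia4, Manf, Syvn1, Pfkm, Slc2a1, Gas2, Irf1, Rora, Arntl, A730056A06Rik, H19, Tnr, Eva1a and Igsf3.

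**Figure D2:**
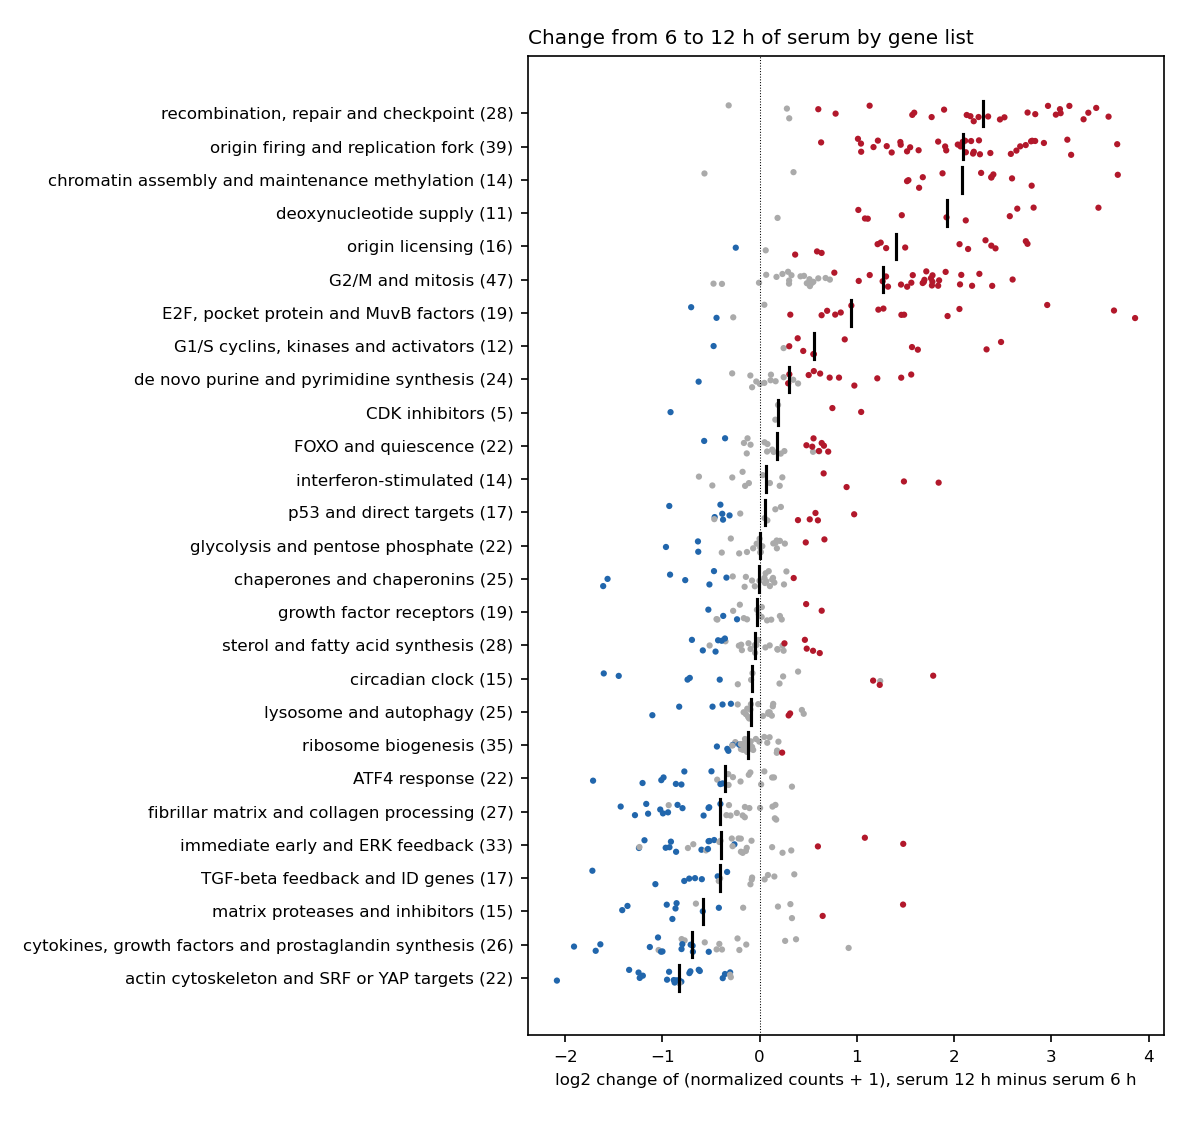
Log2 change from 6 to 12 h of serum for the members of each gene list in the table (number in brackets), 1 point per gene; red marks members called higher, blue members called lower and grey members not called, and the black bar is the list's median. The lists of DNA replication, nucleotide supply, chromatin assembly and repair lie to the right with medians from 1.40 to 2.30, and the actin list lies farthest left at -0.83.

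Of 12 cyclins, kinases and activators of the G1/S transition, 10 rose and 1 fell, with a median log2 change of 0.56. Ccne2, a cyclin E that activates CDK2, read 369 and 289 at 6 h and 1974 and 1697 at 12 h (log2 2.48, SE 0.25, adjusted p = 5.29e-07). Ccne1 read 1128 and 915 at 6 h and 3569 and 2763 at 12 h (log2 1.63), and its kinase Cdk2 went from 1014 and 932 to 2931 and 2833 (log2 1.57). Fbxo5, the inhibitor that holds the anaphase-promoting complex off during S phase, rose from 565 and 695 to 3538 and 2830 (log2 2.33). The phosphatase Cdc25a rose by a log2 change of 0.45 (adjusted p = 0.00621), which did not pass without 12 h replicate 1 (0.37, adjusted p = 0.0665).

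Of the D-type cyclins, which act earlier, Ccnd1 read 6760 and 4971 at 6 h and 7563 and 6251 at 12 h, with overlapping libraries (log2 0.25, adjusted p = 0.437); its mean before serum was 2130. Ccnd2 fell from 10851 and 12216 to 7957 and 8629 (log2 -0.47, adjusted p = 0.000274). Ccnd3 rose from 4934 and 4503 to 6974 and 6908 (log2 0.56), although annotated pseudogenes carry its name and could share its reads. Of 5 CDK inhibitors in the table, 2 rose (40%, against 19.3% of all genes) and 1 fell (20%, against 20.6%). At 12 h 1 of the 5 had a higher mean log2 value than before serum (median log2 difference -0.45). Cdkn2c (p18) rose from 2456 and 2748 to 5039 and 5699 (log2 1.04, limma adjusted p = 3.87e-08). It stayed below its mean of 7133.5 before serum. Cdkn2d (p19) read 153 and 305 against 380 and 348 (log2 0.75, adjusted p = 0.037), and was not called without 12 h replicate 1 (adjusted p = 0.144), 12 h replicate 2 (0.0852) or 6 h replicate 1 (0.502). Cdkn3 read 73 and 147 against 52 and 57 (log2 -0.92, adjusted p = 0.0429), and was not called without 12 h replicate 1 (adjusted p = 0.148), 12 h replicate 2 (0.0981) or 6 h replicate 2 (0.441). Quantile normalization ended the call of Cdkn2d (adjusted p = 0.11) and equal totals that of Cdkn3 (adjusted p = 0.0748). Cdkn1b (p27) read 2022 and 2614 at 6 h and 2629 and 2614 at 12 h, against a mean of 5164 before serum (12 h against 6 h, log2 0.19, adjusted p = 0.135; 0.00544 without 6 h replicate 2). Cdkn1a (p21) stood at 3145 and 3454 at 6 h and 3624 and 3748 at 12 h (log2 0.16, adjusted p = 0.23).

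Of 19 E2F factors, pocket proteins and MuvB subunits, 15 rose and 2 fell (median log2 0.94). E2f2, an activator E2F, read 25 and 17 at 6 h and 298 and 330 at 12 h (log2 3.86, SE 0.46, adjusted p = 3.30e-06). E2f1 read 1186 and 956 at 6 h and 4615 and 4247 at 12 h (log2 2.06, SE 0.11, adjusted p = 4.18e-10); its mean was 1645 before serum and 771 at 2 h, so the 6 h level lay below the starved level. The atypical repressors E2f8 (173 and 222 to 1603 and 1459, log2 2.96) and E2f7 (659 and 851 to 2349 and 1876, log2 1.49) rose in the same interval. Mybl2, the B-MYB partner of MuvB, rose from 185 and 262 to 2821 and 2711 (log2 3.64), and Foxm1 from 945 and 1661 to 3560 and 3332 (log2 1.46). Rbl1, the pocket protein p107, rose from 549 and 732 to 2522 and 2328 (log2 1.93). The called falls were E2f5 (882 and 927 to 524 and 586) and Lin37 (log2 -0.44). The Lin37 call did not hold under equal totals (adjusted p = 0.101), without 12 h replicate 1 (adjusted p = 0.239) or without 6 h replicate 1 (adjusted p = 0.109), and Lin37 shares exon sequence with Hspb6.

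**Figure D3:**
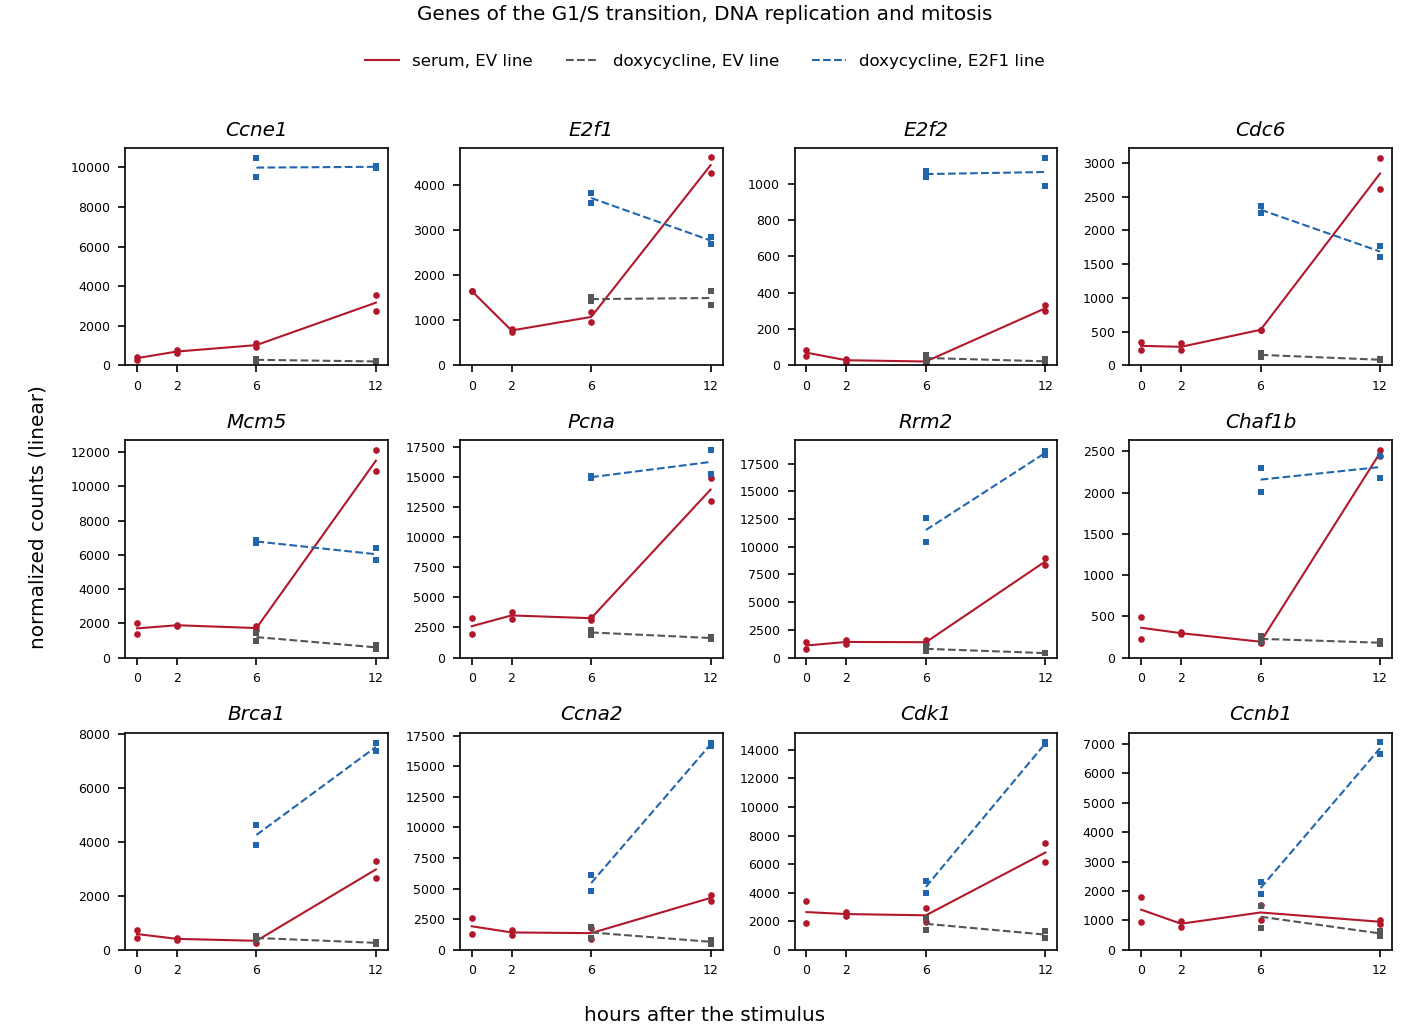
Normalized counts on a linear scale (vertical axes, each gene its own) against hours after the stimulus (horizontal axes) for 12 genes of the G1/S transition, replication and mitosis; points are single libraries and lines join group means for serum in the EV line (red), doxycycline in the EV line (grey) and doxycycline in the E2F1 line (blue). Under serum Mcm5 stays between 1587 and 1862 at 6 h and reaches 10889 to 12093 at 12 h, while Ccnb1 reads 895 to 1017 at 12 h and does not exceed its 6 h libraries.

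Origin licensing loads the MCM helicase onto DNA before S phase, through the origin recognition complex (ORC), Cdc6 and Cdt1. Of its 16 listed genes, 14 rose, 1 fell and 1 was not called (median log2 1.40). Mcm5 read 1862 and 1587 at 6 h and 12093 and 10889 at 12 h (log2 2.74, SE 0.21, adjusted p = 1.72e-08). The other 5 helicase subunits rose by log2 changes of 1.5 (Mcm2) to 2.38 (Mcm7). Mcm2 went from 4488 and 3977 to 12269 and 11601. Counts are not scaled by gene length, so levels of different genes are not compared. Cdc6 rose from 527 and 526 to 3069 and 2615 (log2 2.43). Gmnn, the geminin that blocks relicensing, rose from 217 and 200 to 1527 and 1306 (log2 2.76). Cdt1, which geminin binds, rose less, from 1719 and 1467 to 3823 and 3706 (log2 1.25). Within ORC, Orc1 rose by 1.3 and Orc6 by 1.21, while Orc3 changed by 0.06 (not called). Orc4 was called lower at -0.25, which ended under equal totals (adjusted p = 0.346) and without any 1 of the 4 libraries (adjusted p from 0.0776 to 0.124).

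An E2F site written as TTTCCCGC, TTTCGCGC, TTTGCCGC or TTTGGCGC on either strand stood in the 250 bases before the RefSeq start of 7 of the 14 licensing genes with a RefSeq promoter (50%). Of the 8609 tested genes with a promoter, 329 held one (3.82%), and of all 27025 RefSeq promoters, 517 (1.91%). The share was 39 of 464 (8.41%) among the 2-fold rises and 2 of 172 (1.16%) among the 2-fold falls. Among fork genes it was 4 of 30 (13.3%), and none of the 6 largest rises of the licensing and fork lists (Dna2, Lig1, Mcm10, Clspn, Prim1 and Wdhd1) held a site in this window. Among E2F, pocket protein and MuvB genes the share was 5 of 14 (35.7%), and among recombination, repair and checkpoint genes 2 of 21 (9.52%). For chromatin assembly it was 1 of 13 (7.69%), and for deoxynucleotide supply 0 of 9. The CHR element TTTGAA, on either strand, stood in 16 of 39 promoters of the mitotic list (41.0%). Its share was 882 of 8609 tested genes (10.2%) and 4398 of all 27025 RefSeq promoters (16.3%). It was 4 of 14 among E2F, pocket protein and MuvB genes (28.6%) and 3 of 13 in chromatin assembly (23.1%). On the other lists searched it ranged from 4.76% (repair) to 11.1% (deoxynucleotide supply). Within the mitotic list the element stood in 11 of the 22 promoters of members called higher (50%) and 5 of the 17 of members not called (29.4%). A match is a description of these letters and not a measured binding site.

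The next lines hold promoters with a match from licensing and mitotic genes called higher, where no annotated exon reaches into the 250 bases. At most 3 per motif are printed, taken in order of the rise, so they are not the full set. Each line gives the 250 bases before the gene start, 5′ to 3′ on the gene's strand (RefSeq, GRCm38.p6). They were chosen after the matches were seen. Capitals mark E2F sites in Mcm5 (chr8:75109259-75109508, + strand) and Mcm6 (chr1:128359706-128359955, - strand), and the CHR letters in Smc2 (chr4:52438971-52439220, + strand), Mki67 (chr7:135716380-135716629, - strand) and Kif11 (chr19:37376132-37376381, + strand). The last 3 encode a condensin subunit, a coat protein of mitotic chromosomes and a spindle kinesin.
Mcm5: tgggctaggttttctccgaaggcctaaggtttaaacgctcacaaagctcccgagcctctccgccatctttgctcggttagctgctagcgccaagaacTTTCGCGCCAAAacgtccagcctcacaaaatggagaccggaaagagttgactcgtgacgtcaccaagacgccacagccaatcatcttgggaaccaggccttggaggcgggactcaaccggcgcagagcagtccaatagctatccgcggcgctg
Mcm6: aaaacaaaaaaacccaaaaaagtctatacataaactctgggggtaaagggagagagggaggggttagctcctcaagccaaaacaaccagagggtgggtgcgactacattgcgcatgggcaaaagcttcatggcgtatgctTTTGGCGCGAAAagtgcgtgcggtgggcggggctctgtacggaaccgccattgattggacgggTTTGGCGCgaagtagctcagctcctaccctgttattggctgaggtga
Smc2: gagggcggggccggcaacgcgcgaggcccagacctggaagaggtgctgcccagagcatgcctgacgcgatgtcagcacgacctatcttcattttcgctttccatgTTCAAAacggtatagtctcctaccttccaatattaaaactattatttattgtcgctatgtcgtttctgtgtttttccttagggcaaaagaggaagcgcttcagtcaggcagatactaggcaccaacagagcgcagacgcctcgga
Mki67: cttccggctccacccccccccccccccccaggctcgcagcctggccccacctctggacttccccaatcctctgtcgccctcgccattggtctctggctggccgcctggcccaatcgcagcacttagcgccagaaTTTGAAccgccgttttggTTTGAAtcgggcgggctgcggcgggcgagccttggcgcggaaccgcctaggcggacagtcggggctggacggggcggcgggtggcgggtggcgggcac
Kif11: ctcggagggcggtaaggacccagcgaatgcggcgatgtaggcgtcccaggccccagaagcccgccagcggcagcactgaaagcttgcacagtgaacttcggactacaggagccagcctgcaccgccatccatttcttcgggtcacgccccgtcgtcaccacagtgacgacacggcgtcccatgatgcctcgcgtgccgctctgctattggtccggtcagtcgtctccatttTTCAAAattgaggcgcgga

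The Mcm5 matches overlap each other and begin 153 and 149 bases before the start; in Mcm6 they begin 110, 106 and 47 bases before it. The CHR match lies 19 bases before the Kif11 start, 145 before the Smc2 start, and 116 and 98 before the Mki67 start. Mcm6 rose from 2492 and 2322 to 11203 and 10095 (log2 2.14). Smc2 rose from 1254 and 1717 to 5948 and 5141 (log2 1.91), and Kif11 from 1033 and 1605 to 4446 and 3882 (log2 1.69).

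All 39 listed genes of origin firing and the replication fork rose, 38 of them at least 2-fold, and each remained called higher without any 1 of the 4 libraries (median log2 2.09, against -0.02 over all genes tested). Dna2, a nuclease that trims Okazaki fragments, read 86 and 51 at 6 h and 974 and 759 at 12 h (log2 3.68, SE 0.32). Lig1, the ligase that joins those fragments, went from 812 and 729 to 7503 and 6715 (log2 3.2, SE 0.16). Mcm10 rose from 268 and 347 to 2922 and 2574 (log2 3.16) and Cdc45, which completes the active helicase, from 337 and 429 to 2682 and 2225 (log2 2.68). The polymerase subunits Pola1 (513 and 625 to 4091 and 3495, log2 2.74) and Pole (462 and 544 to 3660 and 3303, log2 2.79) moved by similar amounts. Pcna, the sliding clamp, rose from 3388 and 3154 to 14924 and 12962 (log2 2.09), and annotated pseudogenes carry its name. The smallest rise was that of Pold2 (log2 0.63). Against the starved cells, 24 of the 39 fork genes had a lower mean log2 value at 6 h (median log2 difference -0.32) and all 39 a higher one at 12 h (median 1.77). The summed normalized counts were 31176 and 42732 before serum and 34939 and 35067 at 6 h, so the libraries of these times overlapped; these values share the 6 and 12 h libraries with the main comparison.

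Deoxynucleotide supply rose with the fork: 10 of 11 genes were higher (median log2 1.92). The salvage kinase Tk1 rose from 909 and 906 to 6711 and 6110 (log2 2.82, SE 0.20, adjusted p = 7.81e-09) and shares exon sequence with Afmid. Rrm2, the S phase subunit of ribonucleotide reductase, rose from 1221 and 1562 to 8968 and 8394 (log2 2.65), and the large subunit Rrm1 from 3908 and 5281 to 18802 and 15774 (log2 1.92). The p53-induced small subunit Rrm2b was the member not called (log2 0.18). Ribonucleotide synthesis moved less, with 11 of 24 genes of purine and pyrimidine synthesis higher and 1 lower (median log2 0.30). Prps2 (log2 1.56), Shmt1 (1.46) and Ctps2 (1.21) led that list, and Impdh1 fell (log2 -0.63). The mean of Ctps2 was 3312 before serum, 900 at 6 h and 2083 at 12 h, so it stayed below the starved level. Prps2 had means of 1370.5, 658.5 and 1923, and Shmt1 of 325.5, 665.5 and 1833.5. Of the 24 genes, 3 had a lower mean log2 value at 6 h than before serum, and 23 a higher one at 12 h.

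Of 14 genes of chromatin assembly and maintenance methylation, 12 rose and none fell (median log2 2.08). Chaf1b, a subunit of the CAF-1 histone chaperone, read 204 and 181 at 6 h and 2515 and 2449 at 12 h (log2 3.68, SE 0.24, adjusted p = 3.37e-09), and its partner Chaf1a rose from 1126 and 1162 to 6508 and 5477 (log2 2.38). Uhrf1, which brings the maintenance methyltransferase to new DNA, rose from 2606 and 2437 to 16072 and 14462 (log2 2.60). Slbp, which binds histone mRNA, rose from 1579 and 1095 to 3878 and 3652 (log2 1.52). The centromeric histone gene Cenpa was not called (log2 -0.57). Only 2 histone genes matching the replication-dependent name pattern were in the table, Hist1h1c and Hist2h2be, and neither was called.

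Recombination, repair and checkpoint genes showed the largest list median, 2.30, with 25 of 28 higher and none lower. Against the starved cells, 23 of the 28 had a lower mean log2 value at 6 h (median log2 difference -0.44). At 12 h all 28 had a higher one (median 1.82). Brca1 rose from 245 and 430 to 3310 and 2650 (log2 3.19, SE 0.26, adjusted p = 4.46e-08), its helicase partner Brip1 from 89 and 137 to 1244 and 1211 (log2 3.46), and Rmi2 from 77 and 37 to 668 and 641 (log2 3.59). Chek1, the kinase of the replication checkpoint, rose from 281 and 316 to 1460 and 1387 (log2 2.25). The members not called were Rmi1 (log2 0.28), Xrcc3 (0.30) and Atrip (-0.32).

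The mitotic list was split. Of 47 G2/M and mitosis genes, 27 rose and none fell, and 20 were not called (median log2 1.26). Against the starved cells, 43 of the 47 had a lower mean log2 value at 6 h (median log2 difference -0.50). At 12 h 34 of them had a higher one than before serum (median 0.66). Condensin, kinetochore and early kinase genes were among the rises: Ncaph read 335 and 457 at 6 h and 2261 and 1874 at 12 h (log2 2.39), Spc24 162 and 339 against 1539 and 1326 (2.60), and Aurkb 404 and 692 against 2579 and 2248 (2.19). Ccna2, the cyclin of S phase and G2, rose from 916 and 1825 to 4503 and 3998 (log2 1.71, SE 0.33, adjusted p = 0.000449), and Cdk1 from 1920 and 2924 to 7481 and 6152 (log2 1.52). Among the 20 members not called, Ccnb1, the mitotic cyclin, read 1030 and 1513 at 6 h and 1017 and 895 at 12 h (log2 -0.39, adjusted p = 0.296; annotated pseudogenes carry its name). Plk1 read 651 and 1072 against 1054 and 1042 (log2 0.33), and Aurka 561 and 1011 against 974 and 1043 (0.42). Cdc20 read 2255 and 4351 against 2219 and 2289 (-0.47), and Cenpe 1204 and 2125 against 1864 and 1899 (0.23). Plk1, Aurka, Cdc20 and Cenpe were picked after their values were seen.

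The replicates at 6 h differed on this list. Replicate 2 was above replicate 1 for 46 of the 47 genes, against 5524 of all 11208 genes, and the list's summed normalized counts were 49280 and 80212 at 6 h and 150956 and 132599 at 12 h. Without 6 h replicate 2, 33 members were called higher, and without 6 h replicate 1, 23 higher and 1 lower. Replicate 2 also had the higher sum before serum (63246 and 110462) and in EV doxycycline cells at 6 h (50656 and 88411) and 12 h (33639 and 46047), but not at 2 h of serum (55752 and 46608). The part of this difference in the changes of single genes was not tested.

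The same hours without serum gave a different picture. In EV doxycycline cells, 5 genes were called between 6 and 12 h (0.0446%; none higher; 1337 at an unadjusted p under 0.05, 11.9%, limma). The fork list had a median log2 change of -0.35 there, and the mitotic list -0.93. Tested directly, the change under serum exceeded that under EV doxycycline for 1447 genes (12.9%) and was below it for 1302 (11.6%), again by limma; under equal totals the counts were 2056 and 812. All 39 fork genes, 13 of 16 licensing genes and 39 of 47 mitotic genes were among those with the larger change under serum. The mitotic count therefore exceeded the 27 called in the serum comparison itself, and it was 27 without EV doxycycline 6 h replicate 2.

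Between 6 and 12 h, 1688 genes rose (15.1%) and 2265 fell (20.2%) in E2F1 doxycycline cells. Summed over the 39 fork genes, the normalized counts were 128353 and 120260 at 6 h and 155902 and 160918 at 12 h in E2F1 doxycycline cells, against 34939 and 35067 at 6 h and 135450 and 119164 at 12 h under serum. Summed over the 47 mitotic genes they went from 185124 and 156454 to 506223 and 495552. The change differed between the stimuli in 2962 genes, larger under serum for 1691 (15.1%) and smaller for 1271 (11.3%), or 2057 and 948 under equal totals. The lines differ as well as the stimuli, so the 2 cannot be told apart in this contrast.

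By list, 36 of 39 fork genes and 12 of 16 licensing genes changed more under serum than under E2F1 induction and none changed less. Cdc6 read 2358 and 2254 at 6 h and 1602 and 1770 at 12 h in E2F1 doxycycline cells where serum cells went from 527 and 526 to 3069 and 2615, a difference of the log2 changes of 2.88 (SE 0.30, adjusted p = 3.84e-06). Of the 47 mitotic genes, 11 changed less under serum, against 11.3% of all genes, and 1, Ncaph, changed more, against 15.1%. The other mitotic genes, the larger part of the list, were not called in this contrast. Ccnb1 went from 2309 and 1891 to 6654 and 7048 in E2F1 doxycycline cells, and its difference was -2.10 (adjusted p = 0.000952). The count of 11 was 4 without serum 6 h replicate 2, 6 without E2F1 doxycycline 6 h replicate 2 and 19 without serum 6 h replicate 1; with any 1 library other than serum 6 h replicate 2 left out, no mitotic gene was called as changing more. Of the 2164 serum rises, 756 were also rises of the E2F1 interval (34.9% of the former, 44.8% of the 1688 latter) and 260 were falls there (12.0% of the serum rises, 11.5% of the E2F1 falls). Of the 2308 serum falls, 819 also fell under E2F1 (35.5%, and 36.2% of the E2F1 falls) and 120 rose there (5.2%, and 7.11% of the E2F1 rises).

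**Figure D4:**
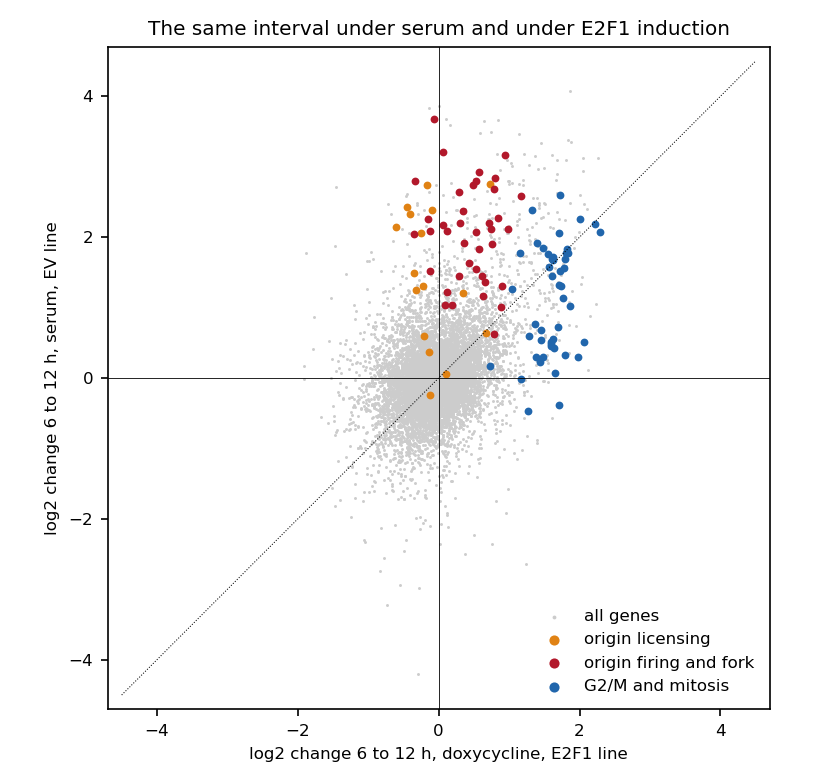
Log2 change from 6 to 12 h under serum in the EV line (vertical axis) against the log2 change over the same hours under doxycycline in the E2F1 line (horizontal axis), 1 grey point per gene, with origin licensing (orange), origin firing and fork (red) and mitotic (blue) genes marked and a dotted line of equal change. Fork genes lie high on the vertical axis near the horizontal zero (medians 2.09 and 0.53), and mitotic genes lie to the right (medians 1.26 and 1.63).

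Of 26 cytokines, growth factors and prostaglandin genes, 13 fell and none rose (median log2 -0.70). Inhba, the activin subunit, had a mean of 700.5 before serum and 127521 at 2 h, read 10089 and 10955 at 6 h and 3168 and 3365 at 12 h, and so fell by 1.69 on the log2 scale from 6 to 12 h (SE 0.18, adjusted p = 8.02e-07). Vegfa read 10771 and 8253 at 6 h and 3372 and 2718 at 12 h (log2 -1.64), and Fgf2 3775 and 4521 against 1540 and 784 (log2 -1.91, with exons shared with Nudt6). Ptgs2, the inducible prostaglandin synthase, read 41913 and 41625 against 21107 and 20245 (log2 -1.01, adjusted p = 0.0236), and its call was lost without any 1 of the 4 libraries (adjusted p from 0.0717 to 0.0923) and under quantile normalization (adjusted p = 0.104). At 12 h Inhba, Vegfa and Fgf2 remained above their means before serum, which were 700.5, 1769 and 119.

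Of 33 immediate early genes and ERK feedback regulators, 12 fell (36.4%, against 20.6% of all genes) and 3 rose (9.09%, against 19.3%). Their median log2 change was -0.40. Klf4 read 1623 and 1302 at 6 h and 620 and 608 at 12 h (log2 -1.24, adjusted p = 3.75e-06), and Srf 7939 and 7803 against 3908 and 4375 (-0.93). Spry2 read 5073 and 3083 against 2543 and 1735 (-0.91, or -0.55 without 6 h replicate 1). The count of 12 was 5 without 12 h replicate 1 and 7 without 6 h replicate 1. Egr1, a classic early gene, rose from 1183 and 752 at 6 h to 2128 and 3244 at 12 h (log2 1.48, SE 0.23, adjusted p = 5.19e-05), toward its mean of 3511 before serum. Fos read 139 and 60 against 99 and 66 and Myc 4745 and 3449 against 3798 and 3834; the libraries of both overlapped and neither was called (log2 -0.18 and -0.08). The 3 rises were Egr1, Egr3 and Btg2. Egr3 did not pass without 12 h replicate 2 (0.79, adjusted p = 0.181) or 6 h replicate 2 (0.40, adjusted p = 0.403). Btg2 (0.60) was not called without 12 h replicate 1, 12 h replicate 2 or 6 h replicate 2 (adjusted p = 0.121, 0.0814 and 0.208). Under quantile normalization neither Egr3 (adjusted p = 0.063) nor Btg2 (adjusted p = 0.107) was called.

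Of 22 genes of the actin cytoskeleton and targets of SRF or YAP, factors that respond to actin dynamics, 19 fell and none rose (median log2 -0.83). Ccn2 read 22091 and 37168 at 6 h and 7271 and 6262 at 12 h (log2 -2.09, SE 0.36, adjusted p = 0.000152) and shares exon sequence with Gm15270. Tpm1, a tropomyosin, fell from 72533 and 72781 to 30221 and 27143 (log2 -1.34), and Vcl, vinculin, from 22699 and 29231 to 12315 and 10173 (log2 -1.20). Actb read 170288 and 182466 at 6 h and 109548 and 104078 at 12 h (log2 -0.72), so this gene is no constant reference over the interval. Under equal totals 15 of the 22 were still lower. Over the same hours the list's median was -0.36 in EV doxycycline cells and -0.54 in E2F1 doxycycline cells. Tested directly, 8 of the 22 changed more negatively under serum than under EV doxycycline and 1 less so. Over all genes these shares were 11.6% and 12.9%. The count of 8 was 5 under equal totals, without serum 12 h replicate 2 or without serum 6 h replicate 1.

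Matrix genes fell in part. Of 27 genes of fibrillar matrix and collagen processing, 13 fell (48.1%, against 20.6% of all genes) and none rose (median log2 -0.40). Under quantile normalization 9 were lower and 4 higher. Tnc, tenascin C, read 171859 and 146569 at 6 h and 69750 and 49710 at 12 h (log2 -1.43, adjusted p = 3.40e-06). The basement membrane collagens Col4a1 (75667 and 96850 to 34059 and 36358, log2 -1.28) and Col4a2 (-1.17) fell together; their exons overlap. Col1a1 and Col1a2, the chains of type I collagen, were not called (-0.15 and 0.00). Among 15 matrix proteases and inhibitors, 8 fell (53.3%, against 20.6% of all genes) and 2 rose (13.3%, against 19.3%). Mmp9, a gelatinase, went from 2071 and 1005 to 592 and 494 (-1.41, or -0.89 without 6 h replicate 1). Adamts5 rose from 758 and 1208 to 2367 and 2994 (log2 1.47), against a mean of 12207 before serum. The other rise, Adamts1 (0.65), was not called without 12 h replicate 2 (adjusted p = 0.136) or 6 h replicate 1 (adjusted p = 0.0733). Of 17 genes of TGF-beta feedback and the ID family, 8 fell and none rose, led by Pmepa1 (6449 and 9357 to 2651 and 2092, log2 -1.72) and Skil (-1.07, or -0.71 without 6 h replicate 2).

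**Figure D5:**
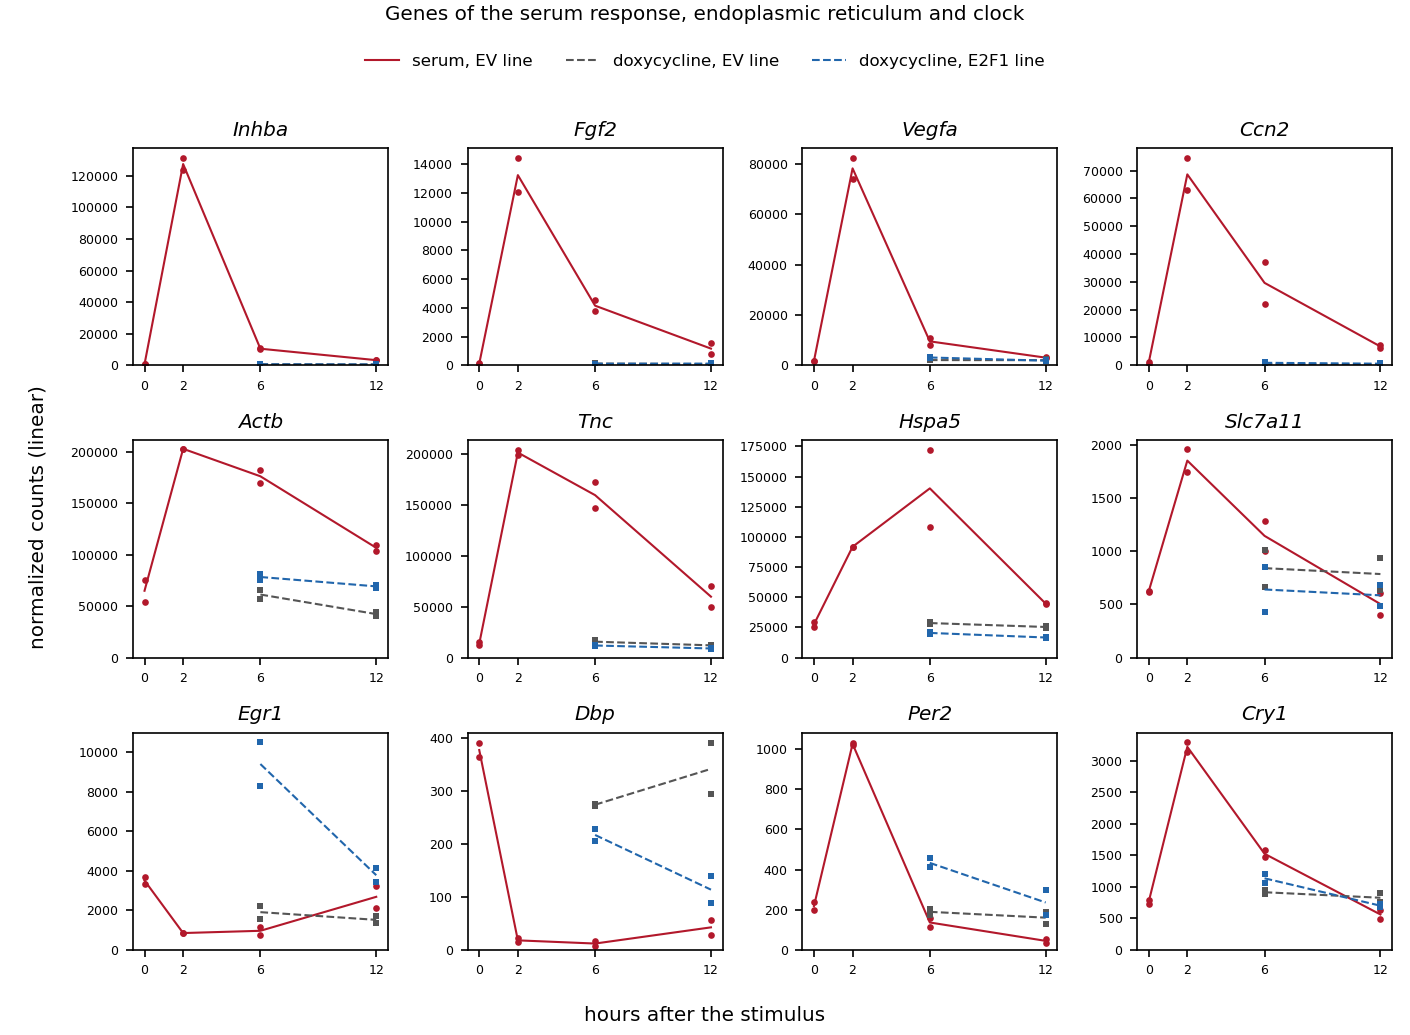
Normalized counts on a linear scale (vertical axes, each gene its own) against hours after the stimulus (horizontal axes) for 12 genes of the serum response, endoplasmic reticulum and clock; points are single libraries and lines join group means for serum in the EV line (red), doxycycline in the EV line (grey) and doxycycline in the E2F1 line (blue). Inhba peaks at 2 h (mean 127521) and falls through 6 and 12 h, the mean of Hspa5 is highest at 6 h, and Egr1 and Dbp are higher at 12 h than at 6 h.

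Hspa5 (BiP), a chaperone of the endoplasmic reticulum, read 108208 and 172124 at 6 h and 44448 and 44970 at 12 h (log2 -1.61, SE 0.14, adjusted p = 8.60e-08); its mean was 27584 before serum and 91801 at 2 h. Dnajb9 (1966 and 3298 to 882 and 839, log2 -1.56), Hsp90b1 (-0.92) and Pdia4 (-0.77) also fell. These are members of a list of 25 chaperones and chaperonins of all compartments. Of these, 7 fell (28%, against 20.6% of all genes) and 1 rose (4%, against 19.3%), and the list's median was 0.00. Under equal totals 6 rose and 6 fell (median 0.13), and under quantile normalization 10 rose and 5 fell. The 1 rise was lost without 12 h replicate 1 or 6 h replicate 2. Creld2, Manf, Syvn1 and Herpud1, picked after their values were seen, act in the same compartment. Creld2 fell from 9046 and 14454 to 2908 and 4000 (log2 -1.75), and Manf from 17285 and 22958 to 6080 and 6861 (-1.62). Syvn1 fell from 4973 and 10255 to 2262 and 2358 (-1.63), and Herpud1 from 3057 and 7101 to 1353 and 1488 (-1.72). The 6 h replicates differ more than 2-fold for Syvn1 and Herpud1. Without 6 h replicate 2 the Herpud1 change was -1.11 and without 6 h replicate 1 it was -2.32.

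Of 22 genes of the ATF4 response to amino acid and reticulum stress, 10 fell (45.5%, against 20.6% of all genes) and none rose. Their median log2 change was -0.35. Ddit3 (CHOP) read 619 and 1265 at 6 h and 401 and 479 at 12 h (log2 -1.01, adjusted p = 0.00103; -0.50 without 6 h replicate 2 and -1.53 without 6 h replicate 1). The count of 10 was 4 without 6 h replicate 2 and 5 without 12 h replicate 1. Replicate 2 was above replicate 1 at 6 h for 21 of the 22 genes, and whether this shapes the falls was not tested. Slc7a11, the cystine carrier, read 1001 and 1286 against 396 and 610 (log2 -1.20) and was not called without 12 h replicate 1 (adjusted p = 0.0682).

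Ribosome biogenesis, raised by serum early, stayed up: the median of its 35 genes was 1.60 above the starved level at 6 h and 1.53 at 12 h. Its shares called from 6 to 12 h were 2.86% higher and 14.3% lower. Both lay below those of all genes (19.3% and 20.6%). Between 6 and 12 h, 1 rose and 5 fell (median log2 -0.12), and under equal totals 4 rose and none fell (median 0.01); the number called lower was 0 without 12 h replicate 2 and 3 without either 6 h library, and the 1 rise was called in none of the fits without 12 h replicate 1, 12 h replicate 2 or 6 h replicate 1. Of 28 genes of sterol and fatty acid synthesis, 5 rose (17.9%, against 19.3% of all genes) and 6 fell (21.4%, against 20.6%). Those counts were 1 and 10 without 12 h replicate 2, 8 and 1 without 12 h replicate 1, and 4 and 1 without 6 h replicate 2, and 12 h replicate 2 was above replicate 1 for all 28 genes. The median was -0.05 under serum and -0.43 under EV doxycycline. Tested directly, 11 of the 28 changed more positively under serum (12.9% of all genes did) and none more negatively (11.6%). The count of 11 was 6 without EV doxycycline 6 h replicate 2 and 7 without serum 12 h replicate 2. Of 22 genes of glycolysis and the pentose phosphate pathway, 2 rose (9.09%, against 19.3% of all genes) and 3 fell (13.6%, against 20.6%). The median log2 change was 0.01. Pfkm was among the rises (1916 and 1517 to 2588 and 2829, log2 0.67) and Slc2a1, the glucose carrier, among the falls (10503 and 9283 to 6810 and 5936, -0.63). Under equal totals 6 of that list rose and 2 fell, and without 6 h replicate 2 only 1 was called higher.

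FOXO targets and quiescence genes had a median 1.25 below the starved level at 6 h. From 6 to 12 h 7 of 22 rose (31.8%, against 19.3% of all genes) and 2 fell (9.09%, against 20.6%), with a median log2 change of 0.18, against 0.09 in EV doxycycline cells. Tested directly, 1 changed more positively under serum than under EV doxycycline (12.9% of all genes did) and 1 more negatively (11.6%). These counts ranged from 0 to 3 and from 0 to 2 with 1 library left out, the 3 without serum 6 h replicate 1 and the 2 without serum 12 h replicate 2, and were 4 and 0 under equal totals. The list's median stood 1.16 below the starved level at 12 h. Sesn3 read 3833 and 2441 at 6 h and 4748 and 4929 at 12 h (log2 0.66, adjusted p = 0.00109; 0.34 without 6 h replicate 2), against a mean of 17363 before serum. Pdk4 rose from 1111 and 1255 to 1780 and 1823 (0.61). The 2 falls were Klf9 and Gas2, and neither was called without 12 h replicate 1 (adjusted p = 0.0521 and 0.169); Gas2 was also not called under equal totals (adjusted p = 0.0996) or quantile normalization (adjusted p = 0.0629). Under equal totals 12 of the 22 were higher. Of 17 genes in the p53 list 5 rose (29.4%, against 19.3% of all genes) and 6 fell (35.3%, against 20.6%), with a median log2 change of 0.05. Trp53 itself rose from 5623 and 4883 to 7164 and 6615 (log2 0.39), and annotated pseudogenes carry its name. The p53 counts were 3 and 3 without 12 h replicate 1 or 6 h replicate 1, 2 and 4 without 12 h replicate 2, and 3 and 5 without 6 h replicate 2. Of 14 interferon-stimulated genes 4 rose (28.6%, against 19.3% of all genes), among them Irf1 (317 and 222 to 558 and 437, 0.89), and none fell (against 20.6%). Under quantile normalization 1 of the list was called lower.

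Of 15 clock genes in the table, 3 rose (20%, against 19.3% of all genes) and 5 fell (33.3%, against 20.6%). The repressors Per2 (158 and 115 to 56 and 34, log2 -1.60, adjusted p = 0.000125) and Cry1 (1469 and 1577 to 638 and 485, -1.45) fell, as did the activator gene Arntl (1363 and 1795 to 934 and 936, -0.74). Nr1d2 (502 and 361 to 1143 and 802, log2 1.17), Rora (126 and 84 to 224 and 265, 1.24) and Dbp (7 and 17 to 29 and 56, 1.78) rose. Dbp rests on few counts: its change was 1.20 without 6 h replicate 1 and 2.37 without 6 h replicate 2, and it shares exon sequence with Sphk2. Under equal totals 3 clock genes were lower and 4 higher.

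The 15 largest falls with a mean of at least 50 held several secreted and matrix proteins. Col5a3, a fibrillar collagen chain, read 6840 and 5912 at 6 h and 897 and 1011 at 12 h (log2 -2.74, SE 0.17, adjusted p = 1.29e-09). The semaphorin gene Sema7a fell from 7900 and 4689 to 1581 and 1230 (log2 -2.13) and Igsf3 from 554 and 510 to 116 and 123 (-2.14). The chemokine genes Ccl9 (168 and 271 to 33 and 51, -2.35) and Ccl17 (457 and 307 to 86 and 85, -2.12) fell too. Also in the set were A730056A06Rik, Itgbl1, Tnr, Eva1a and Plac1 (-2.50, or -1.46 without 12 h replicate 1). Calls of the other 5 did not survive every left-out library: Fibcd1 had an adjusted p of 0.069 without 6 h replicate 2 and H19 of 0.0668 without 6 h replicate 1. For Dpt it was 0.0741 without 12 h replicate 2 and 0.0766 without 6 h replicate 1, and for Nppb 0.0894 and 0.124. For Nes it was 0.125, 0.055 and 0.0806 without 12 h replicate 2, 6 h replicate 1 and 6 h replicate 2.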

How the data were processed

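RNA abundance was taken from the deposited table of 11208 genes in 22 libraries (11 groups of line, stimulus and time, 2 libraries each). Its values are normalized counts that the authors rounded to whole numbers, a score rather than raw counts. FastQC, Trimmomatic, HISAT2, featureCounts and DESeq2 and the build mm10 are listed without versions per the submitters' processing notes; the annotation, use of strand, scaling and gene filter are not given in the sources used here. The lowest mean of a gene was 99.6. Values were whole multiples of 1 read in 10 of the 22 libraries (at least 99% of values up to 600), so reads were not recovered for all and no count test was run. In the 3 of the 4 serum libraries where it was found, 33100000 to 35300000 reads lay on these genes.

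log2(value + 1) was fitted with limma 3.58.1 in R 4.3.3, a mean per group over all 22 libraries (11 residual degrees of freedom), with a mean-variance trend and Benjamini-Hochberg adjustment over all genes at 0.05. A minimum of 10 in 2 libraries removed no gene. The script was tested on simulated data. The comparison of serum with doxycycline intervals is a difference of differences in the same fit.

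Gene lists and members were chosen with earlier results of these data known. Named genes are the 15 largest called rises and falls with non-overlapping libraries whose higher group averaged 50 or more, up to 6 called members per list and direction, a set of 48 cell cycle and early genes, and the 5 largest differences per comparison of intervals and direction; genes picked later are said to be so. Of 11208 gene IDs, 10977 matched GENCODE M21 (GRCm38), used for exon overlaps. Promoters are the 250 bases before the first RefSeq start of a symbol (GRCm38.p6); the promoters printed differ from the 6 planned, which held no match. Of the genes tested, 8609 matched a promoter by symbol. The alternatives were other scalings (equal totals, quantile, and, added after seeing the data, a median change of 0), a pseudocount of 8, no filter, a mean of at least 500, no trend, fewer groups in the fit, a replicate block and each library left out. Chromatin accessibility and binding files of the series were not used here. Some genes of the lists, counted in them, are not reported here by name.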

Additional observations from a re-analysis of the deposited data

Results flagged for a closer look

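The change from 6 to 12 h differed between stimuli by a test of the difference itself (limma), which is what marks the results below. Against EV doxycycline it differed for 2749 genes, and against E2F1 doxycycline for 2962. Values are differences of log2 changes, serum minus doxycycline.

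Against EV doxycycline the largest positive differences were those of Dscc1 (5.12, adjusted p = 5.63e-07), Lrr1 (5.04), E2f2 (4.90), Dna2 (4.5) and Slfn9 (4.33). Lrr1, a factor of replisome removal, read 40 and 69 at 6 h and 464 and 487 at 12 h of serum. The largest negative differences belonged to Aldh3a1 (-4.36), Eva1a (-3.56), A730056A06Rik (-3.48), H19 (-3.01) and Col5a3 (-2.94). Aldh3a1 read 20 and 15 at 6 h and is listed at 0 in both 12 h libraries, so its fitted change depends on the pseudocount.

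Against E2F1 doxycycline they were Megf6 (4.16), Dscc1 (3.97), E2f2 (3.85), Dna2 (3.75) and Ung (3.66) upward, and Aldh3a1 (-3.90), Nes (-3.87, adjusted p = 0.0233), Ccl9 (-3.10), Itgb3 (-2.88) and Plac1 (-2.87) downward. Ung, the uracil glycosylase, rose from 465 and 385 to 1522 and 1370 under serum and its log2 change in E2F1 doxycycline cells was -1.89.

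Among 10 genes of the cell cycle examined singly, the change was larger under serum than under E2F1 induction for Mcm5 (2.91), Cdc6 (2.88), Ccne2 (2.79), E2f1 (2.48), Pcna (1.98) and Ccne1 (1.62). It was smaller for Ccnb1 (-2.10) and Plk1 (-1.47, adjusted p = 0.00608). For Ccna2 (0.08) and Cdk1 (-0.20) the difference did not pass. Which E2f1 reads of the E2F1 line come from the construct was not tested.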

How the results depend on the processing

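The count of genes called in the serum comparison was 4472, and 3414 to 4077 with 1 of the 4 libraries left out. It was 3038 when only these 2 groups were fitted, and 4576 under equal totals, 4154 under quantile normalization and 4416 with the median change set to 0, an alternative chosen after seeing the data. Genes called with at least a 2-fold change numbered 840, and 805 to 949 with 1 library left out; 544 were called among genes with a mean of at least 500, where fewer genes are tested. Equal totals turned 48.4% of calls higher into 69.6%. Of 239 genes that fell at least 2-fold, the count was 152 under equal totals. The comparison with EV doxycycline gave 1900 to 2823 calls and that with E2F1 doxycycline 2228 to 3019 with 1 library left out. The replicate numbers are shared by label only; deviations of the same-numbered serum libraries correlated at 0.19. A fit with the replicate number as a block gave 4603, 842, 2863 and 3098 calls for the 4 results. The sign of 5 genes that were not called turned. Myc was 0.05 under equal totals and ranged from -0.31 to 0.15 with 1 library left out, Fos from -0.77 to 0.42, Plk1 from -0.03 to 0.69, Aurka from 0.00 to 0.84 and Cenpe from -0.18 to 0.64; the cause was not tested. Of the 228 called genes named or eligible to be named, none turned in sign, but 67 did not pass the threshold under at least 1 alternative.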
